A study of Homo sapiens with 9 samples.

Results

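The genes described here encode the proteasome, the barrel-shaped protease that degrades ubiquitin-tagged proteins in every human cell, as measured in DLD1 colorectal cancer cells after depletion of Lamin A/C or Lamin B2. They were taken as all probes whose gene name on the array starts with PSMA, PSMB, PSMC, PSMD, PSME or PSMF. This gave 46 gene names with 70 probes, out of 31033 names and 50238 probes on the array. PSMC3IP, a recombination factor, and PSMAL, a relative of a membrane peptidase, share only the letters of the name and were set aside, which left 44 proteasome genes with 68 probes. Of these, 43 genes were well above background on all 9 arrays and were tested. PSMA8, the testis form of an alpha subunit, was not above background on any array.

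RNA came from 3 control cultures, 3 with Lamin A/C Kd and 3 with Lamin B2 Kd, described as independent biological replicates. Both knockdowns used 100 nM siRNA for 48 h, and the controls were DLD1 cells without any siRNA. An effect of transfection itself therefore cannot be told apart from that of either knockdown, and both knockdowns are set against the same 3 control arrays. Each culture was hybridized to a single-color Agilent 60-mer array. A level is the log2 processed intensity of a probe minus the median of its array, and a gene is represented by its brightest probe. Differences are called where limma's moderated test, with Benjamini-Hochberg adjustment over all probes tested, gave an adjusted p under 0.05. Levels are compared for the same probe only, because brightness also depends on the probe.

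The proteasome consists of a core particle and regulatory particles that cap it. Alpha subunits form the outer rings of the core and gate its entrance. Beta subunits form the inner rings, and among them PSMB5, PSMB6 and PSMB7 carry the cutting sites. Interferon induces PSMB8, PSMB9 and PSMB10, which replace them in the immunoproteasome and favor peptides suited to presentation by MHC class I molecules. The regulatory particle has a base with ATPases that unfold the substrate and a lid that removes ubiquitin, and the PSME activators are alternative caps.

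Target depletion and array quality were checked first. LMNA, which encodes Lamin A/C, was at 8.83 ± 0.07 in control (mean ± SD, n = 3) and at 4.84, 5.14 and 5.03 upon Lamin A/C Kd, a change of -3.83 (adjusted p = 0.000241). LMNB2 was at 5.56 ± 0.16 in control and 3.24 ± 0.20 upon Lamin B2 Kd, a change of -2.32 (adjusted p = 0.000576). The share of spots well above background ranged from 65.6 to 74.1% over the arrays. All 8 epithelial markers found on the array were tested, and 1 of them, VIL1, fell upon Lamin B2 Kd (-1.06, adjusted p = 0.0349, and -0.87, adjusted p = 0.0496, without replicate 3 of that group). A dimmer VIL1 probe was at -0.54 without replicate 3 and did not pass (adjusted p = 0.399). The leukocyte marker PTPRC and the fibroblast markers COL1A1 and COL1A2 could not be tested for lack of signal. Lamin B2 Kd replicate 3 was the only array on its slide, and its intensities are spread less widely than the others. The log2 ratio of its 75th to its 50th percentile was 2.80, against 3.03 to 3.22 on the other 8 arrays. Its processed intensities were 0.995 to 1.005 times the background-subtracted ones. On the other 8 arrays the highest such ratio was between 1.22 and 2.36, so the processing step differed. Whether this bears on its values was not tested. For the proteasome genes, the main counts, medians and calls that rest on this array are therefore also given without it.

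The catalytic subunits were each read by a probe of 60 bases, shown here because the constitutive and the inducible subunit of a pair are related proteins. Positions that the probes of a pair share in 1 run amount to at most 5 bases for PSMB5 and PSMB8, 8 for PSMB6 and PSMB9 and 7 for PSMB7 and PSMB10. The probe of PSMA3, the alpha subunit with the clearest difference, is given as well.
PSMB5: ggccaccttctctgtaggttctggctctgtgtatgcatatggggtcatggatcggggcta
PSMB8: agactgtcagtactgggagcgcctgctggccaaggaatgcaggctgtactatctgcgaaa
PSMB6: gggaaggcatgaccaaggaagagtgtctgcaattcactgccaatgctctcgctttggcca
PSMB9: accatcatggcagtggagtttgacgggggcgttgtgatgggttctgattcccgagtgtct
PSMB7: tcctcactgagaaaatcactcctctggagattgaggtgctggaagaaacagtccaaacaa
PSMB10: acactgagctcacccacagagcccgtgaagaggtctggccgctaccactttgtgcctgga
PSMA3: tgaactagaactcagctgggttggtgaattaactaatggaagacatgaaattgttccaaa

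Upon Lamin A/C Kd, 0 of the 43 proteasome genes passed the adjusted threshold in limma's test, compared with 8.84% of all genes tested. An unadjusted p under 0.05 was found for 4 of 43, all lower (PSMD3, PSMA2, PSME3 and PSMD1), against 23.1% of all genes. The arrays of the groups did not overlap for 17 of 43 genes (14 lower and 3 higher), against 40.8% of all genes. Their changes ranged from -0.60 for PSMD3 to 0.30 for PSME4, with a median of -0.08, and the median of all 21845 genes was -0.04. Of the 43 genes, 31 had a change below 0. The 2-fold criterion of the study's methods, with an unadjusted p under 0.05, was met by 0 of 43 genes, against 2.21% of all genes. The count depended on how the arrays were processed. After normexp background correction 6 genes passed and with the slide as a block 5 did, all of them lower, and PSMA2, PSMC5, PSMD3 and PSME3 were in both sets. The shares of all genes that passed under these settings are not given here, so these counts have no background beside them.

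Upon Lamin B2 Kd, 2 proteasome genes fell, PSMA3 and PSMD3, and none rose. PSMA3 is an alpha subunit of the core and PSMD3 a subunit of the lid. Among all 22102 genes tested, 4.32% passed and 3.88% were lower, and 2 of 43 is close to these shares. An unadjusted p under 0.05 was found for 7 of 43 genes, all lower, against 24.4% of all genes. The groups did not overlap for 19 of 43 genes, all lower, against 32.9% of all genes. The change was below 0 for 42 of the 43 genes, with a median of -0.23, while the median of all genes was -0.14 and 14738 of the 22102 genes were also below 0. None met the 2-fold criterion, against 2.02% of all genes. No gene passed without control replicate 1, 2 or 3, in the authors' table, without a detection filter, with the replicate block or with only the 2 groups in the fit.

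The shift of nearly all proteasome genes to lower levels upon Lamin B2 Kd was carried mostly by 1 array. Relative to the control mean, the median of the 43 genes was -0.05 in replicate 1, -0.15 in replicate 2 and -0.50 in replicate 3. Over all 20271 genes well above background on every array, the medians of the same arrays were -0.06, -0.09 and -0.33. All 43 genes lay below their control mean in replicate 3, compared with 24 in replicate 1 and 38 in replicate 2. Without replicate 3 the median over the 43 genes was -0.11 and that of all genes was -0.07, with 36 of the 43 genes below 0. Of the 43 genes, 1 then passed (PSMA3), against 4.59% of all genes, 7 had an unadjusted p under 0.05, all lower, against 20.9%, and 19 did not overlap, all lower, against 40.8%. Scaling matters as well. When the 75th percentile replaced the median, the proteasome median was -0.03 with 25 of 43 genes below 0, and the median of all genes was 0.05. The proteasome median lay 0.09 below that of all genes with either shift, which follows from subtracting 1 value per array. This gap was 0.02 with quantile normalization and 0.04 without replicate 3. Upon Lamin A/C Kd the per-array medians of the 43 genes were -0.15, -0.10 and -0.02, and in the controls they ranged from -0.04 to 0.05.

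**Figure D1:**
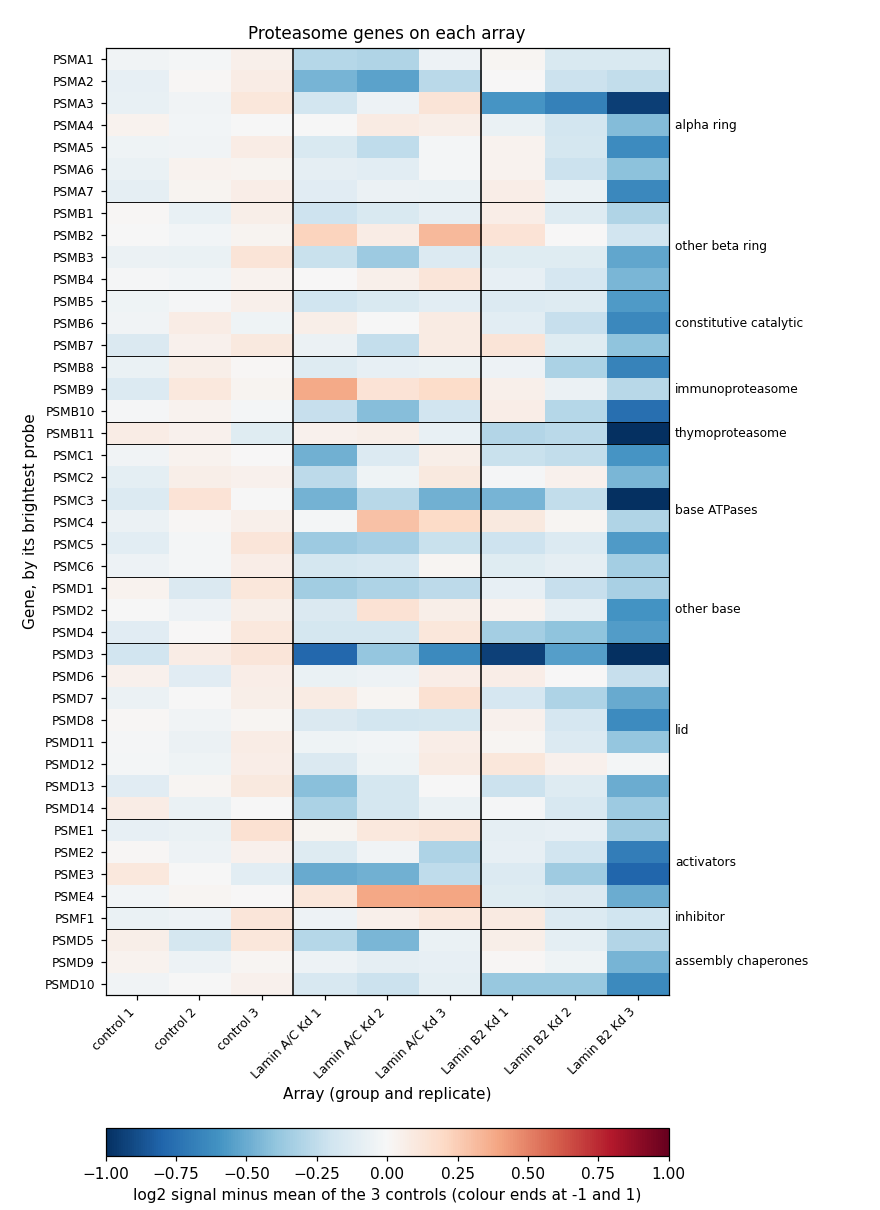
Log2 signal of each of the 43 proteasome genes (rows, by role) on each of the 9 arrays (columns), as a difference from the mean of the 3 control arrays. The colors run from -1 (blue) to 1 (red), and the 3 values below -1 are drawn at the end of the scale. Lamin B2 Kd replicate 3 is below the control mean in all 43 rows, most faintly for PSMD12. PSMA3 and PSMD3 are among the genes that are blue on all 3 Lamin B2 Kd arrays.

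The alpha ring contained the gene that differed most clearly between the knockdowns. PSMA3 was at 8.71, 8.76 and 8.90 in control, at 8.61, 8.74 and 8.92 upon Lamin A/C Kd and at 8.20, 8.11 and 7.85 upon Lamin B2 Kd. All 3 Lamin B2 Kd arrays were below all 6 others, and the Lamin A/C Kd and control arrays overlapped. The change upon Lamin B2 Kd was -0.74 ± 0.14 (SE of the fit), which is 1.67-fold lower (adjusted p = 0.0266). Without replicate 3 the change was -0.64 and still passed (adjusted p = 0.0314), but leaving out control replicate 1, 2 or 3 raised the adjusted p to 0.0985, 0.0977 and 0.133. Upon Lamin A/C Kd the change of PSMA3 was -0.03 ± 0.14 (adjusted p = 0.928).

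Of the other alpha subunits, PSMA2 had the largest change upon Lamin A/C Kd. Its level was 8.40, 8.49 and 8.56 in control and 8.02, 7.95 and 8.21 upon Lamin A/C Kd, without overlap. The change of -0.42 ± 0.12 did not pass (adjusted p = 0.0677). Upon Lamin B2 Kd, PSMA2 was at -0.15 relative to control (adjusted p = 0.453). PSMA1, PSMA4, PSMA5, PSMA6 and PSMA7 were at -0.21 to 0.04 relative to control upon Lamin A/C Kd and at -0.26 to -0.10 upon Lamin B2 Kd, none past the threshold.

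Constitutive and inducible catalytic subunits showed no called difference in either knockdown. PSMB5, the chymotrypsin-like subunit, was at 9.03, 9.07 and 9.13 in control, 8.87, 8.92 and 8.97 upon Lamin A/C Kd and 8.94, 8.95 and 8.51 upon Lamin B2 Kd. PSMB8, which takes its place in the immunoproteasome, was at 5.14, 5.27 and 5.22 in control, 5.08, 5.13 and 5.14 upon Lamin A/C Kd and 5.16, 4.89 and 4.55 upon Lamin B2 Kd. For both genes the lowest value was that of Lamin B2 Kd replicate 3. The changes of PSMB5 were -0.15 for Lamin A/C and -0.28 for Lamin B2 depletion, and those of PSMB8 were -0.09 and -0.34, with SE of 0.14 to 0.15 (adjusted p between 0.214 and 0.785).

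For PSMB6, the caspase-like subunit, and its counterpart PSMB9, no difference from control passed either. PSMB9 was at 3.71, 3.95 and 3.88 in control, 4.23, 3.99 and 4.04 upon Lamin A/C Kd and 3.90, 3.79 and 3.57 upon Lamin B2 Kd. All 3 Lamin A/C Kd arrays were above all controls, with a change of 0.24 ± 0.13 that did not pass (adjusted p = 0.324). PSMB6 was at 9.31, 9.41 and 9.30 in control, 9.40, 9.34 and 9.42 upon Lamin A/C Kd and 9.23, 9.10 and 8.69 upon Lamin B2 Kd. Its change was 0.05 upon Lamin A/C Kd and -0.33 ± 0.15 upon Lamin B2 Kd (adjusted p = 0.901 and 0.216). PSMB9 upon Lamin B2 Kd was at -0.10 relative to control (adjusted p = 0.661).

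PSMB10 replaces PSMB7, the trypsin-like subunit. PSMB10 was at 6.84, 6.89 and 6.83 in control, 6.62, 6.43 and 6.66 upon Lamin A/C Kd and 6.92, 6.56 and 6.10 upon Lamin B2 Kd. The Lamin A/C Kd arrays were all below the controls, while the Lamin B2 Kd arrays lay on both sides of them. Its changes were -0.28 ± 0.19 and -0.33 ± 0.19 (adjusted p = 0.424 and 0.318). PSMB7 was at 9.38, 9.57 and 9.62 in control, 9.46, 9.28 and 9.61 upon Lamin A/C Kd and 9.65, 9.40 and 9.12 upon Lamin B2 Kd. Its changes were -0.07 and -0.13, with overlapping groups. A dim PSMB7 probe was at 0.09 upon Lamin A/C Kd and at -0.47 upon Lamin B2 Kd. Neither passed (adjusted p = 0.739 and 0.0694), but the Lamin B2 Kd arrays of this probe did not overlap the controls.

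**Figure D2:**
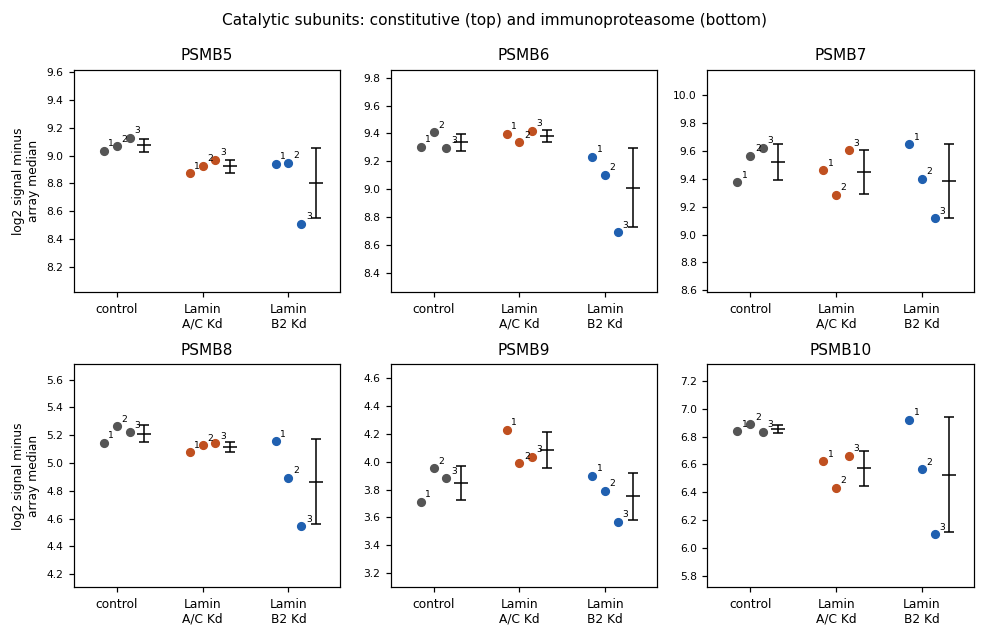
Log2 signal minus the array median for the constitutive catalytic subunits PSMB5, PSMB6 and PSMB7 (top) and the immunoproteasome subunits PSMB8, PSMB9 and PSMB10 (bottom) in control and in both knockdowns. Points are arrays with their replicate number, and bars are the mean ± SD of 3 arrays. Lamin B2 Kd replicate 3 has the lowest value in all 6 panels.

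A difference between 2 probes of the same array does not depend on the shift applied to the array, so the pairs were also set against each other within each array, with every gene centered on its control mean. The mean of PSMB8, PSMB9 and PSMB10 minus the mean of PSMB5, PSMB6 and PSMB7 was 0.01 ± 0.06 upon Lamin A/C Kd and -0.01 ± 0.06 upon Lamin B2 Kd (SD, n = 3 each). The SD of the same value in control was 0.03, so neither group mean lay beyond the spread of its arrays. Lamin B2 Kd replicate 3 was at -0.03 on this measure.

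Separate pairs did not all behave alike. PSMB9 minus PSMB6 was -0.10, 0.03 and 0.07 in control, 0.32, 0.14 and 0.11 upon Lamin A/C Kd and 0.15, 0.18 and 0.37 upon Lamin B2 Kd, so that all 6 knockdown arrays exceeded all controls. PSMB10 minus PSMB7 was 0.13, -0.01 and -0.12 in control, -0.17, -0.19 and -0.28 upon Lamin A/C Kd and -0.06, -0.17 and -0.35 upon Lamin B2 Kd. Here the Lamin A/C Kd arrays were all below the controls, and 1 Lamin B2 Kd array lay within their range. PSMB8 minus PSMB5 averaged 0.06 ± 0.02 upon Lamin A/C Kd and -0.07 ± 0.14 upon Lamin B2 Kd, against an SD of 0.06 in control. These pair differences are given as a description, without a test.

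The remaining beta subunits PSMB1 to PSMB4 were at -0.24 to 0.21 relative to control upon Lamin A/C Kd and at -0.25 to -0.02 upon Lamin B2 Kd, and none passed. PSMB2 upon Lamin A/C Kd was above all controls, with a change of 0.21 ± 0.12 (adjusted p = 0.355). PSMB11, the beta subunit of the thymus form, had a signal above background on all arrays by its brighter probe. It was at 0.49, 0.46 and 0.30 in control, 0.46, 0.48 and 0.34 upon Lamin A/C Kd and 0.12, 0.15 and -1.38 upon Lamin B2 Kd. The low value of replicate 3 set most of its change of -0.79 ± 0.35, which did not pass (adjusted p = 0.217).

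Among the ATPases of the base, 0 of 6 genes passed in either knockdown. PSMC3 had the largest changes of the group, -0.41 ± 0.23 upon Lamin A/C Kd and -0.65 ± 0.23 upon Lamin B2 Kd (adjusted p = 0.326 and 0.142), and its 6 knockdown arrays were all below the controls. Lamin B2 Kd replicate 3, at 6.26, lay far below replicates 1 and 2, at 7.04 and 7.26. PSMC4 was the only ATPase with a change above 0 upon Lamin A/C Kd, at 0.15 ± 0.14 (adjusted p = 0.578). Of the other base subunits, PSMD4, a ubiquitin receptor, was at 8.68, 8.80 and 8.91 in control and 8.46, 8.39 and 8.24 upon Lamin B2 Kd, without overlap. Its change of -0.43 ± 0.13 missed the threshold (adjusted p = 0.0964). PSMD1, a scaffold of the base, was at -0.30 ± 0.12 upon Lamin A/C Kd (adjusted p = 0.147).

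In the lid, PSMD3 had the lowest change of all 43 genes in both knockdowns. It was at 8.34, 8.60 and 8.65 in control, 7.74, 8.14 and 7.89 upon Lamin A/C Kd and 7.59, 7.97 and 7.47 upon Lamin B2 Kd. All 6 knockdown arrays were below the 3 controls, and the 2 knockdowns overlapped. Upon Lamin B2 Kd it fell by 0.85 on the log2 scale (SE 0.17), to 55.5% of control (adjusted p = 0.0351). Upon Lamin A/C Kd the change was -0.60 ± 0.17 and missed the threshold (adjusted p = 0.0608). The direct comparison of the knockdowns gave 0.25 ± 0.17 for Lamin A/C Kd minus Lamin B2 Kd (adjusted p = 0.373), so that a difference between the knockdowns was not shown.

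A second, dimmer PSMD3 probe was at -0.65 relative to control upon Lamin A/C Kd and -0.90 upon Lamin B2 Kd, and neither passed (adjusted p = 0.229 and 0.127). The PSMD3 call also rested on single arrays. Without Lamin B2 Kd replicate 3 or replicate 1, the adjusted p was 0.054 or 0.0689, and without a control array it lay between 0.091 and 0.156. When arrays were shifted by their 75th percentile, PSMD3 passed in both knockdowns, at -0.53 upon Lamin A/C Kd (adjusted p = 0.0415) and -0.65 upon Lamin B2 Kd (adjusted p = 0.043). The other 7 lid genes were at -0.20 to 0.08 relative to control upon Lamin A/C Kd and at -0.33 to 0.05 upon Lamin B2 Kd. PSMD12 was the only one of the 43 genes above its control mean upon Lamin B2 Kd.

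**Figure D3:**
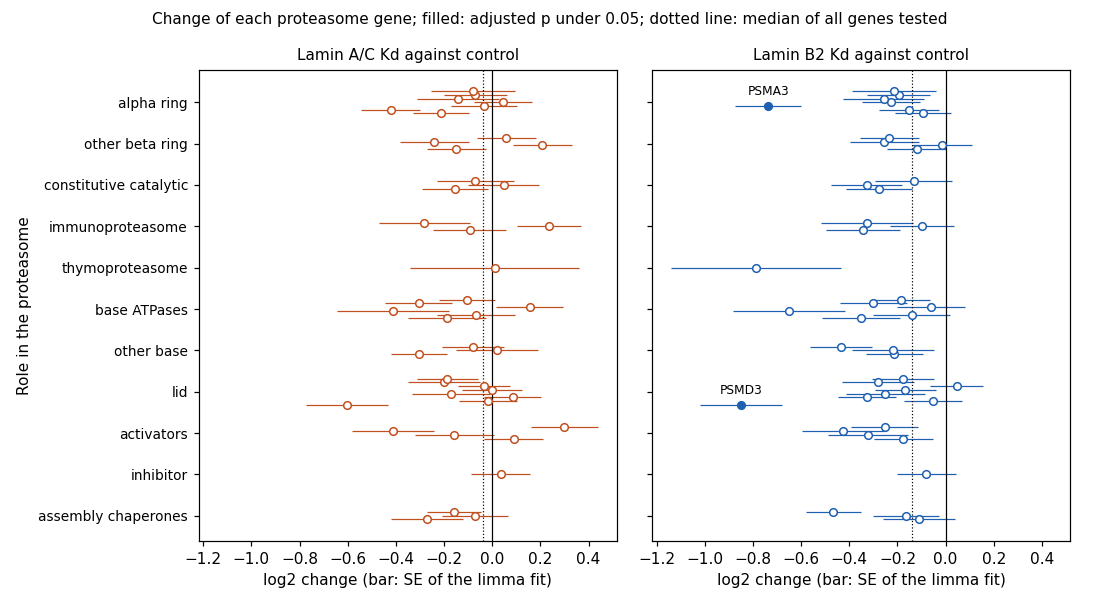
Log2 change against control (x axis) of each of the 43 proteasome genes, grouped by role (y axis), upon Lamin A/C Kd (left) and Lamin B2 Kd (right). Points are single genes with the SE of the limma fit, filled symbols have an adjusted p under 0.05, and the dotted line is the median of all genes tested. Only PSMA3 and PSMD3 upon Lamin B2 Kd are filled, and 42 of the 43 points of Lamin B2 Kd lie below 0, where the dotted line is at -0.14.

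The activators and the inhibitor were mixed upon Lamin A/C Kd. PSME1 and PSME2 form the interferon-inducible cap that is associated with the immunoproteasome. PSME1 was at 9.03, 9.05 and 9.26 in control, 9.14, 9.22 and 9.24 upon Lamin A/C Kd and 9.02, 9.03 and 8.76 upon Lamin B2 Kd. PSME2 was at 10.14, 10.09 and 10.17 in control, 10.01, 10.10 and 9.82 upon Lamin A/C Kd and 10.05, 9.94 and 9.44 upon Lamin B2 Kd. Upon Lamin A/C Kd both genes overlapped the controls, with changes of 0.09 and -0.16, and upon Lamin B2 Kd the changes were -0.18 and -0.32 (adjusted p between 0.27 and 0.74).

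PSME3, a nuclear activator, was at 4.86, 4.76 and 4.65 in control, 4.26, 4.28 and 4.50 upon Lamin A/C Kd and 4.62, 4.40 and 3.97 upon Lamin B2 Kd. Both knockdowns were below all controls, with changes of -0.41 and -0.43 (SE 0.17) that did not pass (adjusted p = 0.18 for each). Its dimmer probes were at -0.25 and -0.17 relative to control upon Lamin A/C Kd and at -0.15 and -0.29 upon Lamin B2 Kd. PSMF1, which encodes an inhibitor of the core, was at 5.09, 5.10 and 5.27 in control and differed by 0.04 upon Lamin A/C Kd and -0.08 upon Lamin B2 Kd, with overlapping groups.

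PSME4, an activator linked to acetylated histones, was on opposite sides of control in the knockdowns. It was at 5.72, 5.77 and 5.76 in control, 5.87, 6.14 and 6.15 upon Lamin A/C Kd and 5.63, 5.61 and 5.25 upon Lamin B2 Kd. No groups overlapped. Against control the changes were 0.30 ± 0.14 and -0.25 ± 0.14, and neither passed (adjusted p = 0.229 and 0.294). When arrays were shifted by their 75th percentile, its value upon Lamin A/C Kd passed at 0.37 (adjusted p = 0.0263), while its change upon Lamin B2 Kd was -0.06.

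The assembly chaperones PSMD5, PSMD9 and PSMD10, which dock the base ATPases and leave the finished particle, were below their control mean in both knockdowns, and none passed. PSMD10 was at 5.57, 5.60 and 5.64 in control and 5.22, 5.22 and 4.96 upon Lamin B2 Kd, a change of -0.47 ± 0.11 (adjusted p = 0.0555). It passed where only probes well above background on all 9 arrays were tested and after normexp correction.

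Set directly against each other, Lamin A/C Kd had higher levels than Lamin B2 Kd in 3 proteasome genes, PSMA3, PSME4 and PSMD7, and a lower level in none. In this comparison 15.6% of all 21828 genes passed and 11.1% were higher, so that 3 of 43 is below the background. An unadjusted p under 0.05 was found for 10 of 43 genes, against 29.3% of all genes, and the groups did not overlap for 12 of 43, against 32.3%. The 2-fold criterion was met by 0 of 43 genes, against 4.18%. The differences were 0.70 ± 0.14 for PSMA3 (adjusted p = 0.00971), 0.55 ± 0.14 for PSME4 (adjusted p = 0.028) and 0.41 ± 0.12 for PSMD7 (adjusted p = 0.0483). PSMD7, a partner of the deubiquitinase of the lid, was at 8.83, 8.89 and 8.95 in control, 8.97, 8.91 and 9.04 upon Lamin A/C Kd and 8.72, 8.58 and 8.38 upon Lamin B2 Kd. All 3 genes had every Lamin A/C Kd array above every Lamin B2 Kd array. Without Lamin B2 Kd replicate 3, the differences were 0.60 for PSMA3, 0.43 for PSME4 and 0.32 for PSMD7, and PSMD7 no longer passed (adjusted p = 0.0513). Of the 43 genes, 2 then passed, against 19.1% of all genes. An unadjusted p under 0.05 was found for 1 lower and 7 higher genes, against 32.4%. Groups did not overlap for 5 lower and 11 higher genes, against 46.1%. With replicate 3 the difference was above 0 for 35 of the 43 genes, and without it for 21. Over the 16 other settings, PSMD7 lost its call in 10, PSME4 in 6 and PSMA3 in 0. A dim probe each of PSMA1 and PSMB7 was also higher upon Lamin A/C Kd, by 0.51 and 0.56 (adjusted p = 0.0419 and 0.0168), while the brightest probes of these genes differed by -0.12 and 0.06.

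**Figure D4:**
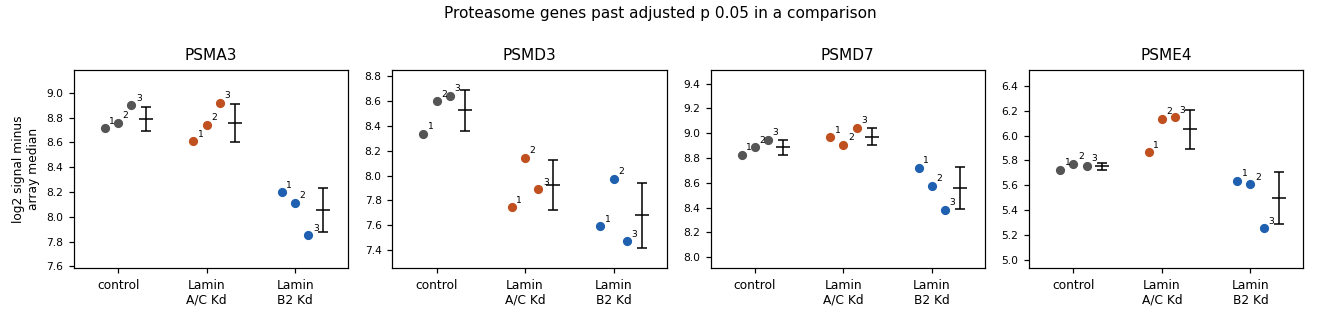
Log2 signal minus the array median for PSMA3, PSMD3, PSMD7 and PSME4, the proteasome genes that passed an adjusted p of 0.05 in any of the 3 comparisons. Points are arrays with their replicate number, and bars are the mean ± SD of 3 arrays. PSMA3 is separate upon Lamin B2 Kd only, PSMD3 is lower on all 6 knockdown arrays, and PSME4 lies above control upon Lamin A/C Kd and below it upon Lamin B2 Kd.

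Genes that feed or assemble the proteasome were taken as a list of 24 tested partners, comprising ubiquitin genes, shuttle receptors, assembly factors, deubiquitinases and the transcription factor NFE2L1. With Lamin A/C Kd, 2 of 24 fell and none rose, and with Lamin B2 Kd 0 of 24 passed (4 at an unadjusted p under 0.05), against 8.84 and 4.32% of all genes (24.4% at an unadjusted p upon Lamin B2 Kd). The median was -0.15 in both, where the medians of all genes were -0.04 and -0.14. Without Lamin B2 Kd replicate 3, the median of the 24 partners upon Lamin B2 Kd was -0.08 and that of all genes was -0.07. The genes that fell were shuttle factors of the ubiquilin family, which carry ubiquitinated proteins to the proteasome. UBQLN1 was at 6.45, 6.38 and 6.55 in control, 5.52, 5.63 and 5.85 upon Lamin A/C Kd and 6.56, 6.42 and 6.25 upon Lamin B2 Kd. It fell by 0.79 on the log2 scale upon Lamin A/C Kd (SE 0.13, adjusted p = 0.0089), whereas Lamin B2 Kd overlapped the controls (change -0.05).

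All 5 UBQLN1 probes were lower upon Lamin A/C Kd, and the next 2 in brightness also passed, at -0.63 and -0.87 (adjusted p = 0.0106 and 0.00536). UBQLN4, from a dim probe, was at 0.76, 0.63 and 1.02 in control and -0.68, -0.20 and 0.03 upon Lamin A/C Kd. Its change of -1.09 ± 0.20 also met the 2-fold criterion (adjusted p = 0.0124), and it was -0.20 upon Lamin B2 Kd. Without control replicate 3, the adjusted p of UBQLN1 was 0.0501 and that of UBQLN4 was 0.0616, and without control replicate 1 that of UBQLN4 was 0.0513. The values of UBQLN2 relative to control were -0.22 and -0.18, and neither passed.

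NFE2L1, which induces proteasome genes when proteasome activity is low, gave different answers by probe. Its brightest probe was at 10.45, 10.36 and 10.57 in control and 10.54, 10.21 and 10.17 upon Lamin B2 Kd, a change of -0.15 (adjusted p = 0.493). Probes of intermediate brightness were at -0.70 and -0.49 upon Lamin B2 Kd and passed (adjusted p = 0.0294 and 0.0423), and a dim probe was at -0.62 (adjusted p = 0.0969). Without replicate 3 the first of these were at -0.60 and -0.42 and still passed (adjusted p = 0.0308 and 0.0357). Upon Lamin A/C Kd the same probes were at -0.01 to 0.29, none past the threshold.

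The peptides made by the immunoproteasome are loaded onto MHC class I by the antigen processing machinery, for which 15 genes of a list were tested. With Lamin A/C Kd, 1 of 15 rose and 1 fell, and with Lamin B2 Kd 0 of 15 passed (3 at an unadjusted p under 0.05), against the same shares of all genes, 8.84, 4.32 and 24.4%. TAP1, a subunit of the peptide transporter, was at 6.29, 6.36 and 6.55 in control, 5.48, 5.52 and 5.66 upon Lamin A/C Kd and 6.08, 6.20 and 5.83 upon Lamin B2 Kd. It fell by 0.84 upon Lamin A/C Kd (SE 0.13, adjusted p = 0.00792) and was at -0.37 ± 0.13 upon Lamin B2 Kd (adjusted p = 0.153), and the groups did not overlap. The direct comparison also passed, at -0.48 for Lamin A/C Kd minus Lamin B2 Kd (adjusted p = 0.0429). TAP1 was the 1 gene of the 15 that was lower in this comparison. Higher were 2, TAPBP at 0.77 and CALR at 0.59 (adjusted p = 0.00217 and 0.0285). Of all genes, 15.6% passed in either direction.

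TAPBP, the tapasin that bridges the transporter and MHC class I, was at 5.45, 5.47 and 5.39 in control and 6.20, 6.12 and 6.18 upon Lamin A/C Kd. It rose by 0.73 ± 0.10 upon Lamin A/C Kd (adjusted p = 0.0056) and differed by -0.04 upon Lamin B2 Kd. Averaged over its tested probes, the difference was 0.55 and did not pass (adjusted p = 0.0791). TAP2, from a dim probe, was at -0.14 and -0.16 relative to control, and neither value passed. The MHC class I genes HLA-B, HLA-C and HLA-E were at 0.15 to 0.26 upon Lamin A/C Kd, and B2M was at 0.04, all without passing. The interferon mediator IRF1 was at -0.10 upon Lamin A/C Kd and at 0.05 upon Lamin B2 Kd, and neither passed.

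**Figure D5:**
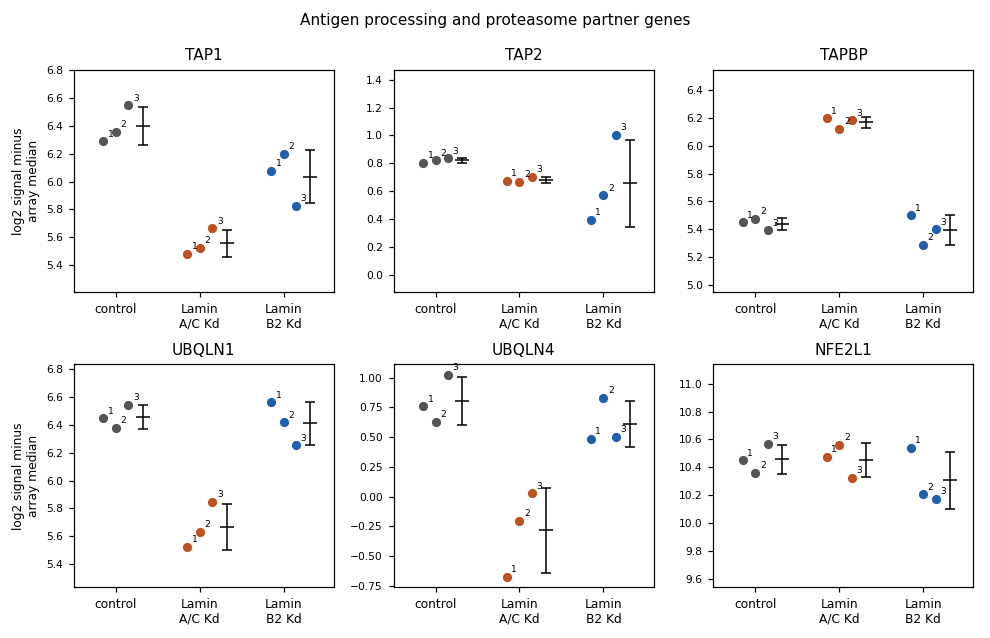
Log2 signal minus the array median for the antigen processing genes TAP1, TAP2 and TAPBP (top) and for the partners UBQLN1, UBQLN4 and NFE2L1 by its brightest probe (bottom). Points are arrays with their replicate number, and bars are the mean ± SD of 3 arrays. TAP1, UBQLN1 and UBQLN4 are lower and TAPBP is higher on all 3 Lamin A/C Kd arrays than on any control.

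TAP1 and PSMB9 are neighbors on chromosome 6, where the order is TAP2, PSMB8, PSMB8-AS1, TAP1, PSMB9 in GRCh38.p14. They are read in opposite directions from start sites with 487 bases between them. Their promoters are shown because this shared stretch lies between a gene that fell upon Lamin A/C Kd, TAP1, and PSMB9, whose change of 0.24 there did not pass. The promoters of PSMB8 and PSMB10 are shown beside them as those of the other inducible subunits. Each sequence is from RefSeq (GRCh38.p14), runs 5′ to 3′ on the strand of its gene and holds 250 bases before the start and the first 10 bases of the transcript. Capitals mark matches to the interferon-stimulated response element, GAAANNGAAA, on either strand, which overlap each other in TAP1. The positions are chr6:32853695-32853954 (minus strand) for TAP1, chr6:32853942-32854201 (plus strand) for PSMB9, chr6:32844038-32844297 (minus strand) for PSMB8 and chr16:67936841-67937100 (minus strand) for PSMB10.
TAP1: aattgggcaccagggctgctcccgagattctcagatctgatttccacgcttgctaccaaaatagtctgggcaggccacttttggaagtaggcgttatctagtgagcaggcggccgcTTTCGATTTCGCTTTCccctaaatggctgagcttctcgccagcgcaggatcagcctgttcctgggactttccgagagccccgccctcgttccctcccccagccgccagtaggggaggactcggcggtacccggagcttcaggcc
PSMB9: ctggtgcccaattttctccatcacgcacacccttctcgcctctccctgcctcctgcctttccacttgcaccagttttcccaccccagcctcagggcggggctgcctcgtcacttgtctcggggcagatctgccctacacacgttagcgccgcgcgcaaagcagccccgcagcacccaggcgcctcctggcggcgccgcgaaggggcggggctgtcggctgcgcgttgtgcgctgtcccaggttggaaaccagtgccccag
PSMB8: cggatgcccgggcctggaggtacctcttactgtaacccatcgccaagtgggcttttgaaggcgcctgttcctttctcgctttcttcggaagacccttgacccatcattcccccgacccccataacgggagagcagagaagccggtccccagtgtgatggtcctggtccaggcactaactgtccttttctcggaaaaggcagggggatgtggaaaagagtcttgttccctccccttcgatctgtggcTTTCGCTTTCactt
PSMB10: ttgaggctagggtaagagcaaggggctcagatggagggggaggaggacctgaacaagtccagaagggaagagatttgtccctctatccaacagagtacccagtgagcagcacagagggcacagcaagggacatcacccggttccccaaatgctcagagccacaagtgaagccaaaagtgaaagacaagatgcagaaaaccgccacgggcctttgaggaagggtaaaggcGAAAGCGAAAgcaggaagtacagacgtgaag

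TAP1 and PSMB8 have further start sites in the table whose windows hold no match. The PSMB9 window has none, although the matches of TAP1 lie in the same stretch between the genes. Across the 300-base windows of the table, 3.57% of 35116 hold this motif, and 4.38% of 27305 gene symbols have it in any of their windows. Of the 39 proteasome genes with a window, 6 have it, PSMA4, PSMB4, PSMB8, PSMB10, PSME1 and PSME2. Of 11 antigen processing genes with a window, 6 have it, B2M, ERAP1, ERAP2, TAP1, TAP2 and TAPBP. Upon Lamin A/C Kd, TAP1 fell and TAPBP rose, while B2M at 0.04, TAP2 at -0.14 and the 6 proteasome genes at -0.28 to 0.09 did not pass. ERAP1 and ERAP2 were not analysed here.

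The antioxidant response element core TGACNNNGC, to which NFE2L1 and its relatives bind, was found in 13 of the 39 genes, including PSMD3, and in 16.1% of all symbols. Of these 13, 8 were below 0 upon Lamin A/C Kd, 12 upon Lamin B2 Kd and 7 upon both, while among all 43 genes 31 and 42 were below 0. Searches for a gamma-activated site, a CCAAT box and a GC box found 8, 19 and 26 of the 39 genes, against 9.38, 39.7 and 48.3% of all symbols. These matches only describe the letters of the windows.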

How the data were processed

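The authors deposited Agilent Feature Extraction output for the 9 arrays, with a background-subtracted intensity per spot, and a matrix of log2 values scaled to the 50th percentile. Of the 50238 rows of that matrix, 20266 are blank, and its Lamin B2 Kd set numbers follow other arrays than the titles do, so it served only as an alternative for whole groups. Here, log2 intensities minus the 50th percentile of the array were averaged over all spots of a probe except flagged outliers. Saturation did not occur. Probes entered a test if at least 0.5 of their spots were well above background on all arrays of a compared group. All 9 arrays were fitted together with limma 3.58.1 (R 4.3.3, data.table version 1.17.8), without a block. The p-values were adjusted over all probes tested. The proteasome genes, the lists and the genes named were chosen with earlier results of these data known. Named in full are the catalytic subunits, the activators and inhibitor, the genes past the threshold and up to 5 per list of partners. Some genes of the lists are not reported here by name. The steps were tested on simulated data. Genome positions in the scanner files are of an older build and were not used, and promoters were matched by symbol. Alternatives were other scalings, normexp with an offset of 50, the detection filter, blocks, probe averaging and leaving out each array. The number of arrays limits the precision.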

Additional observations from a re-analysis of the deposited data

Results flagged for a closer look

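The effects of the knockdowns differed by a direct test in 3 of the 43 proteasome genes. Of all 21828 genes, 15.6% passed and 11.1% were higher, so that 3 of 43 is below the background. Lamin A/C Kd minus Lamin B2 Kd was 0.70 for PSMA3 (adjusted p = 0.00971 in limma's test), 0.41 for PSMD7 (adjusted p = 0.0483) and 0.55 for PSME4 (adjusted p = 0.028), with each gene higher on 3 of 3 Lamin A/C Kd arrays than on any Lamin B2 Kd array. Without Lamin B2 Kd replicate 3, which was alone on its slide, the differences were 0.60 for PSMA3, 0.32 for PSMD7 and 0.43 for PSME4, and PSMD7 lost its call (adjusted p = 0.0513). Of the 43 genes, 2 then passed, against 19.1% of all genes. Over all 16 other settings, PSMD7 lost its call in 10 and PSME4 in 6, and PSMA3 kept it in each.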

How the results depend on the processing

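Of the single genes named, 9 results were called, and 39 of their 144 values under other settings lost the call, 12 of them for PSMD3 and 7 for PSMA3 upon Lamin B2 Kd. The other 32 results were not called, and 10 of their 512 values gained a call. No call was replaced by a call in the opposite direction. Changes that were not called could still change sign with the scaling. For example, PSMF1 upon Lamin B2 Kd was at -0.08 with the median shift and at 0.12 with the 75th percentile, neither called. In Lamin A/C Kd, the number of proteasome genes that passed was 3 with the 75th percentile, 2 with quantile normalization, 6 with normexp, 5 if slides formed a block and 4 with only the 2 groups in the fit, and the median change was -0.00572, 0.0236 and -0.17 with the first 3 of these. In Lamin B2 Kd, the number was 1 with quantile normalization, 5 with normexp, 0 in the authors' table, 0 without a detection filter, 1 if slides formed a block, 0 with only the 2 groups, 1 with probes averaged and 3 (PSMD10 added) among probes well above background on all 9 arrays. With the replicate block it was 0 in Lamin B2 Kd and 1, PSMA3, between the knockdowns. Over all genes the block lowered the calls from 1931 to 992, from 955 to 147 and from 3404 to 2318 in the 3 comparisons. Arrays with the same set number in their titles did not deviate together (r between -0.07 and 0.14). The authors' table numbers the Lamin B2 Kd sets otherwise, so these values cannot show whether the sets were paired. Between the knockdowns, 5 passed with quantile normalization and 1 in the authors' table, without a filter or with only the 2 groups. Except for the replicate block, the calls over all genes are not given in this section. Its counts of proteasome genes therefore have no background beside them. The median difference was 0.00288 with the 75th percentile, 0.0482 with quantile normalization and -0.0205 if slides formed a block, and immunoproteasome minus constitutive subunits was -0.0601 with probes averaged. With each array left out in turn, the counts were 0 to 0, 0 to 2 and 1 to 3 in the 3 comparisons, and the medians ranged from -0.148 to -0.0628, from -0.312 to -0.106 and from -0.0205 to 0.24. The cause of these shifts was not tested. PSMA3 passed between the knockdowns under every setting run (adjusted p at most 0.0426). PSMA8 was not above background.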
